A study of Homo sapiens with 24 samples.

Results

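The effect of EGCG in cells that all received resveratrol was measured in 12 of the 24 RNASeq libraries of 686Tu (MDA686TU) cells. Of these, 6 replicates received resveratrol alone at 15 µM and 6 received the combination of resveratrol at 15 µM and EGCG at 40 µM, each for 24 h. The libraries were chosen by these labels, and every gene that could be tested was compared between them. EGCG is the main catechin of green tea and resveratrol is a stilbene of grapes, and both are polyphenols studied for cancer prevention. 686Tu is an established malignant line from a squamous carcinoma of the head and neck, so every value comes from a single cell line in culture. Resveratrol came from a DMSO stock and EGCG was dissolved in water, so both groups carried the same resveratrol stock. The remaining 12 libraries, 6 untreated controls and 6 with EGCG at 40 µM alone, entered the same fit and gave the change with EGCG in cells without resveratrol. The sources used here do not say whether these 12 libraries received DMSO. Between cells with and without resveratrol, an effect of that solvent therefore cannot be told apart from one of resveratrol.

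All 18 markers of squamous epithelium passed the filter on low counts, with summed normalized counts of 178977 to 189638 in the resveratrol libraries and 181838 to 191948 in the combination libraries. The sum over 10 leukocyte markers was under 15 in every library and none was tested. Of 10 fibroblast markers 2 were tested, COL1A1 among them, and of 8 endothelial markers 1 was. The fibroblast sum was 1314 to 1559 with resveratrol and 1527 to 1756 with the combination. Most of it was COL1A1, with means of 1445 and 1650. Library totals were 7976207 to 10602350 counts with resveratrol and 7466693 to 9597421 with the combination (two-sided exact permutation test, p = 0.141, n = 6 and 6).

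The libraries differed in 2 further ways. In every group the share of mitochondrial transcripts was 0.249% to 0.326% for replicates numbered 1 to 3, below the 0.448% to 0.775% of those numbered 4 to 6. These replicate sets hold 3 libraries of each group, the labels do not name them, and the set was a term of the model. Combination replicate 3 stood apart from the other combination libraries, with a score of -24.7 on the first principal component of the 12 libraries (15.3% of the variance) against -7.06 to -2.55 for the other 5. The main counts are therefore also given without it.

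Differentially expressed genes (DEGs) had p below 0.05 before and below 0.1 after Benjamini-Hochberg adjustment over all tested genes in edgeR's quasi-likelihood test. These thresholds are those of the study's methods. All adjusted p-values come from this test, and all fold changes are log2 values of the combination against resveratrol unless another comparison is named. EGCG added to resveratrol gave 1408 DEGs among 15476 tested genes (9.10%), 711 higher (4.59%) and 697 lower (4.50%) with the combination. The changes were small. In absolute terms the DEGs had a median log2 fold change of 0.19, or 1.14-fold, and 94.5% of the DEGs changed by less than 1.5-fold. In this fit 78 genes (0.504%) changed by 1.5-fold or more, 33 higher and 45 lower, a number that was 31 with the DESeq2 Wald test, 39 with at least 10 counts required in every library and 122 with every gene of at least 1 count. In the same fit 17 changed by 2.0-fold. Some of the falls of 1.5-fold or more are of noncoding RNA, such as RNA5-8SN3 and RN7SL1, and lay mainly in replicates 1 to 3. The 6 combination libraries did not overlap the 6 resveratrol libraries for 495 genes (3.20%), of which 463 were DEGs, 283 genes lay above (1.83%) and 212 lay below (1.37%). Of the DEGs 1402 had the same direction within each replicate set. The DEGs were called from both sets together, which favors a shared direction, so this is no independent replication. Without combination replicate 3 there were 1267 DEGs, 1038 of them among the 1408.

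**Figure D1:**
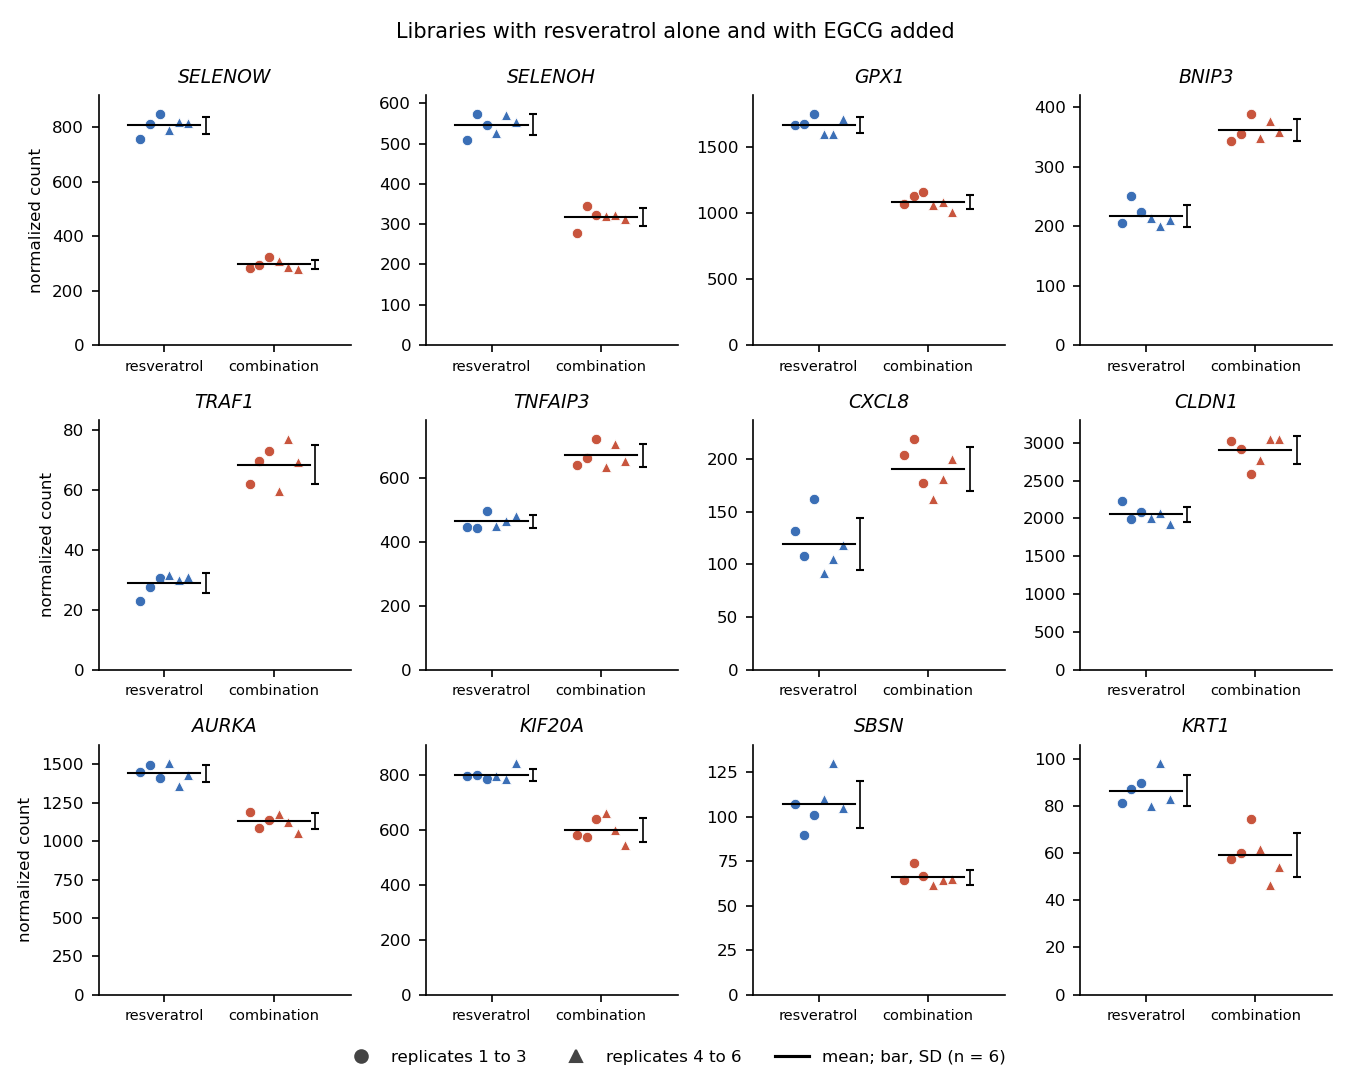
Normalized counts (vertical axes, from 0) of 12 genes in the 6 resveratrol libraries (blue) and the 6 combination libraries (red), with circles for replicates 1 to 3, triangles for replicates 4 to 6, a line at the mean and a bar for the SD. For each of the 12 genes all 6 libraries of one group lie on the same side of all 6 libraries of the other.

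Among DEGs with a mean of at least 20 normalized counts and no overlap between the groups, the largest fall belonged to a selenoprotein. Selenoproteins carry selenocysteine, which is read from an in-frame UGA codon that elsewhere means stop, with the help of a structure in the tail of the mRNA and a dedicated tRNA. Many are antioxidant enzymes, and their mRNAs are known to differ in how they hold up when selenium or its decoding is limited. An in-frame UGA that lies ahead of the last exon junction is the kind of stop that nonsense-mediated mRNA decay is known to act on. Of 18 selenoprotein genes tested, 8 fell and 2 rose. The median of the list was -0.10 on the log2 scale, where the median of all tested genes was 0.00.

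SELENOW (ENSG00000178980, GRCh38 chromosome 19, 47778677 to 47784686) encodes a small selenoprotein with a thioredoxin-like fold. Its normalized counts were 759 to 850.3 (median 815) with resveratrol and 279 to 324 (median 290.4) with the combination. No library of one group reached the range of the other. This was a log2 fold change of -1.45 (standard error 0.0433, adjusted p = 2.4e-27), with -1.42 in replicates 1 to 3 and -1.48 in replicates 4 to 6. SELENOH (ENSG00000211450, chromosome 11, 57741491 to 57743554), a nuclear selenoprotein, had 509 to 574 (median 551) normalized counts with resveratrol and 277 to 346 (median 321) with the combination. It changed by -0.79 (standard error 0.0506, adjusted p = 3.4e-15), again without overlap. GPX1 (ENSG00000233276, chromosome 3, 49357174 to 49358605), the cytosolic glutathione peroxidase, had 1600.4 to 1756 (median 1676) and 1013 to 1159 (median 1079) normalized counts and a log2 fold change of -0.62 (standard error 0.0395, adjusted p = 3.4e-15). Its pseudogene GPX1P1, which is close to it in sequence, changed by -0.66, and the summed count of the pair had a log2 ratio of -0.63, so the fall does not depend on how reads were divided between them.

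The other selenoproteins that fell did so by less. TXNRD1, the cytosolic thioredoxin reductase, had 8335 to 8815 (median 8399.5) normalized counts with resveratrol and 6693 to 7245 (median 6946) with the combination, a change of -0.29 (adjusted p = 4.2e-12) without overlap. The endoplasmic reticulum proteins SELENOT and SELENON changed by -0.36 and -0.29, the lipid peroxide reductase GPX4 by -0.28 and the mitochondrial thioredoxin reductase TXNRD2 by -0.16. Opposite to these, SEPHS2, which makes the selenophosphate needed for selenocysteine and is itself a selenoprotein, rose from 708 to 822 (median 769) to 859 to 1021 (median 981), a change of 0.33 (adjusted p = 4.1e-08) without overlap. SELENOO, a mitochondrial pseudokinase, rose by 0.23 (adjusted p = 0.0192). In the machinery that makes and decodes selenocysteine 2 of 12 tested genes rose, SEPHS2 and the seryl-tRNA synthetase SARS1 (0.14), and 2 fell, the tRNA kinase PSTK (-0.51, at 18.1 to 25.9 (median 22.8) and 13.5 to 18.4 (median 15.0) normalized counts) and nucleolin, NCL (-0.08).

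The place of the selenocysteine codon was read from the GENCODE annotation of GRCh38 for the 18 tested selenoproteins. SELENON has 2 annotated selenocysteine codons, and its distance of 1221 bases is that of the first, codon 127 of 590. In 10 of the 18 the first in-frame TGA lay more than 50 bases ahead of the last exon junction of the transcript used, and in 8 it lay closer to that junction, in the last exon, or in a transcript of a single exon. Of the 10, 7 fell and none rose, and their log2 fold changes ranged from -1.45 to 0.11 around a median of -0.28. Of the 8 others, 1 fell (TXNRD1) and 2 rose (SELENOO and SEPHS2), with a median of 0.10 and a range of -0.29 to 0.33. This division was made after the fold changes were known, so no test was run, and the part of the codon's place in the result was not tested. The windows below show the codon, in capitals, of the 3 selenoproteins that fell most, then of TXNRD1, the member that fell with its codon in the last exon, and of SEPHS2, which rose. They are written as DNA in the direction of the mRNA.
SELENOW: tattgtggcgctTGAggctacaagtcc
SELENOH: cattgcactagcTGAcgcgtctatggg
GPX1: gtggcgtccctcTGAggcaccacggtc
TXNRD1: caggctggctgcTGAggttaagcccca
SEPHS2: ggcatgaagggcTGAggctgcaaggtc
The codons lie at chr19:47780732-47780734 (plus strand) for SELENOW, chr11:57741816-57741818 (plus) for SELENOH, chr3:49358132-49358134 (minus) for GPX1, chr12:104348413-104348415 (plus) for TXNRD1 and chr16:30445548-30445550 (minus) for SEPHS2, all in coding exons. In SELENOW it is codon 13 of 87 and lies 243 bases ahead of the last junction. In GPX1 it is codon 49 of 203 at 105 bases, and in SELENOH codon 44 of 122 at 267 bases. In TXNRD1 it is codon 648 of 649, next to the end of the protein. SEPHS2 has its selenocysteine at codon 60 of 448 in a transcript of 1 exon, with no junction behind it.

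**Figure D2:**
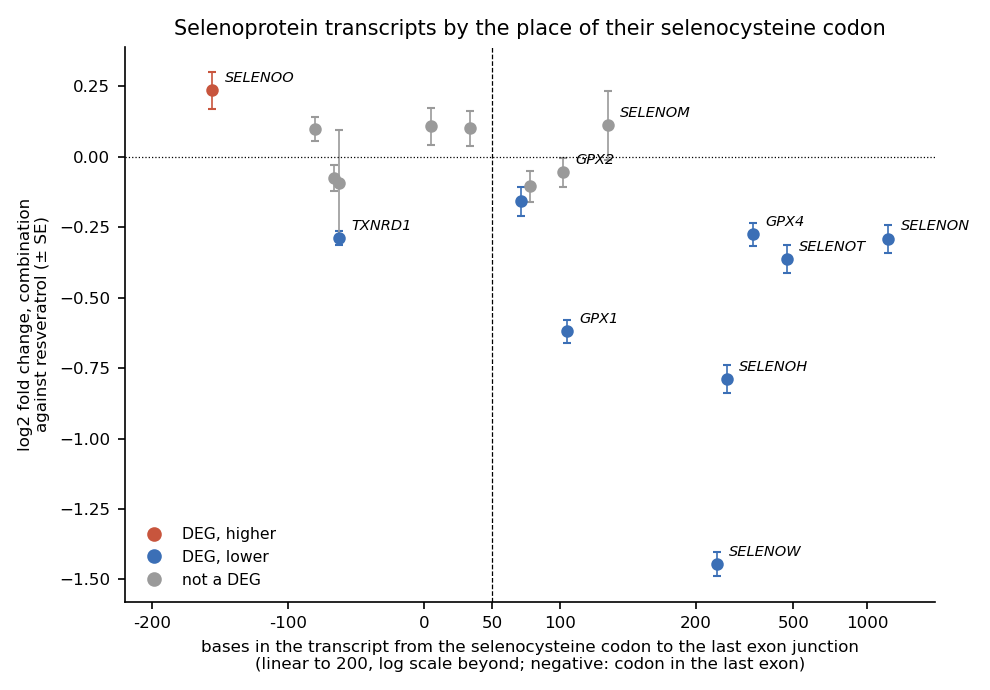
Log2 fold change of the combination against resveratrol with its standard error (vertical axis) against the bases from the selenocysteine codon to the last exon junction (horizontal axis, linear to 200 and log beyond, negative in the last exon), for the 17 tested selenoproteins with more than 1 exon. SELENON is drawn by the first of its 2 codons. SELENOW, SELENOH and GPX1 lie right of the dashed line at 50 bases and below -0.60, and TXNRD1 is the only blue point left of it.

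The second group was that of hypoxia-inducible genes, which the factor HIF-1 turns on when oxygen is low or when the prolyl hydroxylases that mark HIF-1α for destruction are inhibited, for example by loss of iron. Of 35 tested genes 19 rose and none fell, the median change was 0.18, and 10 lay without overlap above the resveratrol libraries. BNIP3 (ENSG00000176171, chromosome 10, 131967684 to 131981967), a mitochondrial receptor for mitophagy, had normalized counts of 200.2 to 250.5 (median 212) with resveratrol and 343 to 389 (median 357) with the combination. It rose by 0.73 (standard error 0.0560, adjusted p = 1.0e-12), with 0.68 and 0.79 in the 2 replicate sets. Its pseudogene BNIP3P1 rose by 0.82 at 41.3 to 52.6 (median 47.2) and 73.3 to 94.9 (median 87.2) normalized counts, and the sum of both genes had a log2 ratio of 0.75.

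NDRG1, a stress-response gene of epithelium, rose from 1389 to 1478 (median 1409.7) to 1763 to 2111 (median 1796) (log2 fold change 0.39, adjusted p = 1.0e-10). The collagen prolyl hydroxylase P4HA1 rose by 0.31, the pyruvate dehydrogenase kinase PDK1 by 0.30, the mTORC1 inhibitor DDIT4 by 0.24, the vascular growth factor VEGFA by 0.18 and the glucose transporter SLC2A1 by 0.14. LDHA, lactate dehydrogenase A, had 5125 to 5441 (median 5191) and 5930.4 to 6474 (median 6234) normalized counts and a change of 0.26 (standard error 0.0244, adjusted p = 3.5e-10). Of 17 glycolysis enzymes 7 rose, all by 0.26 or less, and 1 fell, the muscle type phosphofructokinase PFKM (-0.11). The glycolysis list shares members with the hypoxia list, LDHA among them, so its rises are not separate from those counted above. CA9, a textbook HIF-1 target, rose by 1.35 but at few counts, 0.955 to 4.25 (median 3.27) and 3.06 to 11.4 (median 8.89) normalized counts. Iron handling genes gave 2 rises among 17, the transferrin receptor TFRC (0.18, adjusted p = 4.9e-05) and HMOX2 (0.11), and no fall. The 2 rises are 11.8% of the list, against 4.59% of all tested genes. As a whole the iron list hardly moved, with a median of 0.02, 9 estimates above 0 and 8 below. LOXL2, a collagen cross-linking enzyme that was on no hypoxia list here, had one of the larger rises, from 106 to 155 (median 121) to 181 to 202 (median 187) (log2 fold change 0.61, adjusted p = 3.6e-06).

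Promoters, here the 250 bases ahead of a RefSeq start, were searched on both strands for ACGTG and GCGTG, the core of the hypoxia response element. A table of 27305 RefSeq promoters (GRCh38.p14) held 10379 of the tested genes. The core was present in 13 of the 16 risen hypoxia-inducible genes with an entry (81.2%), in 23 of the 29 tested ones (79.3%), in 57.7% of tested genes and in 43.1% of all promoters. Matches to such short motifs are common and are not binding sites. The list was chosen as one of hypoxia-inducible genes, so its share above that of all tested genes says nothing about the rise. The promoters of BNIP3 and LDHA are shown, as the list's best-supported rises with an entry, with matches to either core in capitals. Where both strands match at the same place, as in the E-box CACGTG, the matches overlap.
BNIP3: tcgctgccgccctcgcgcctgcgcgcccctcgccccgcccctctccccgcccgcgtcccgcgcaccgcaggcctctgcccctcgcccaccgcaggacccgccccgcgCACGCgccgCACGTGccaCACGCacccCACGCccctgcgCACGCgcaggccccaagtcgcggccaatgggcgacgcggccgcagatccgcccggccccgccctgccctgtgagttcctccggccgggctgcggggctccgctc
LDHA: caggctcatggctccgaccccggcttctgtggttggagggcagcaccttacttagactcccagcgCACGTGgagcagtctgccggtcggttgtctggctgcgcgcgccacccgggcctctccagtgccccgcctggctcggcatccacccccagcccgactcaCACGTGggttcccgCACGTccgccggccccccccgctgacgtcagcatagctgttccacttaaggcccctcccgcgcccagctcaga
The first is chr10:131981924-131982173 (minus strand) with 6 matches and the second is chr11:18394313-18394562 (plus strand) with 5.

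The third group was that of NF-kappaB. NF-kappaB factors wait in the cytoplasm bound to inhibitors, enter the nucleus after cytokine or stress signals, and turn on cytokines together with genes that shut the signal off again. Of 22 feedback and signaling genes 14 rose and none fell, with a median of 0.20. TRAF1 (ENSG00000056558, chromosome 9, 120902393 to 120929173), an adaptor of TNF receptors, had the largest rise among DEGs with a mean of at least 20 normalized counts and no overlap. Its normalized counts were 22.9 to 31.7 (median 30.2) with resveratrol and 59.6 to 77.1 (median 69.5) with the combination, without overlap, a log2 fold change of 1.24 (standard error 0.130, adjusted p = 4.8e-09). BIRC3, a ubiquitin ligase that blocks cell death, rose from 184 to 214 (median 191) to 271 to 352 (median 336) (log2 fold change 0.70, adjusted p = 6.9e-09). TNFAIP3 (chromosome 6, 137867214 to 137883314), the A20 deubiquitinase that ends NF-kappaB signals, rose from 443 to 494 (median 458) to 633 to 721 (median 657) (log2 fold change 0.53, standard error 0.0469, adjusted p = 5.1e-11). IL32, a proinflammatory cytokine, changed by 0.87 at 39.2 to 66.3 (median 53.2) and 76.3 to 123 (median 100.1) normalized counts.

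Within the pathway itself, the subunits NFKB2 and RELB of the noncanonical branch rose by 0.37 and 0.36, the inhibitors NFKBIA and NFKBIB by 0.16 and 0.20, and the A20 partner TNIP1 by 0.33. The adhesion molecule ICAM1 had 49.8 to 69.7 (median 54.8) and 69.3 to 93.6 (median 84.0) normalized counts, ranges that overlapped slightly, and rose by 0.56 (adjusted p = 9.4e-04). Of 24 cytokines and chemokines 9 rose and none fell, with a median of 0.29. CXCL8, the neutrophil chemokine interleukin-8, had 92.0 to 162 (median 113) and 162 to 219 (median 191) normalized counts, with the lowest combination library next to the highest resveratrol library, and rose by 0.67 (standard error 0.0905, adjusted p = 1.3e-06). CXCL1 rose by 0.55 and IL6 by 0.57, both with ranges that overlapped. CSF2, which encodes GM-CSF, had the largest estimate of the list, 1.26 (adjusted p = 5.3e-04), at a highest value of only 25.9 normalized counts. IL1A and IL1B rose by 0.23 and 0.36, and IL1R2, the decoy receptor for interleukin-1, by 0.60 (28.9 to 37.6 (median 33.4) and 45.6 to 56.7 (median 51.8) normalized counts).

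Promoters were searched for 6 ten-base kappaB sequences. TNFAIP3 holds a pair of them side by side, and its promoter (chr6:137867009-137867258, plus strand) is shown for that reason with both in capitals. Such a sequence was found in 3 of the 12 risen genes with an entry (25%), in 6 of the 19 tested genes of the list (31.6%), in 0.906% of all tested genes and in 0.718% of all promoters. The list was chosen as one of NF-kappaB genes, so its share above that of all tested genes says nothing about the rise. The share was not higher in the risen genes than in the list.
TNFAIP3: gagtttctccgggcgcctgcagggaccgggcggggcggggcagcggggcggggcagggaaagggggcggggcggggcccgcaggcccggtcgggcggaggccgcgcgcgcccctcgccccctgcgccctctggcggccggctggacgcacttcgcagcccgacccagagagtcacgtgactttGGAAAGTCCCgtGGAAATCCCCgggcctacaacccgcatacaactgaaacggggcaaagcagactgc

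**Figure D3:**
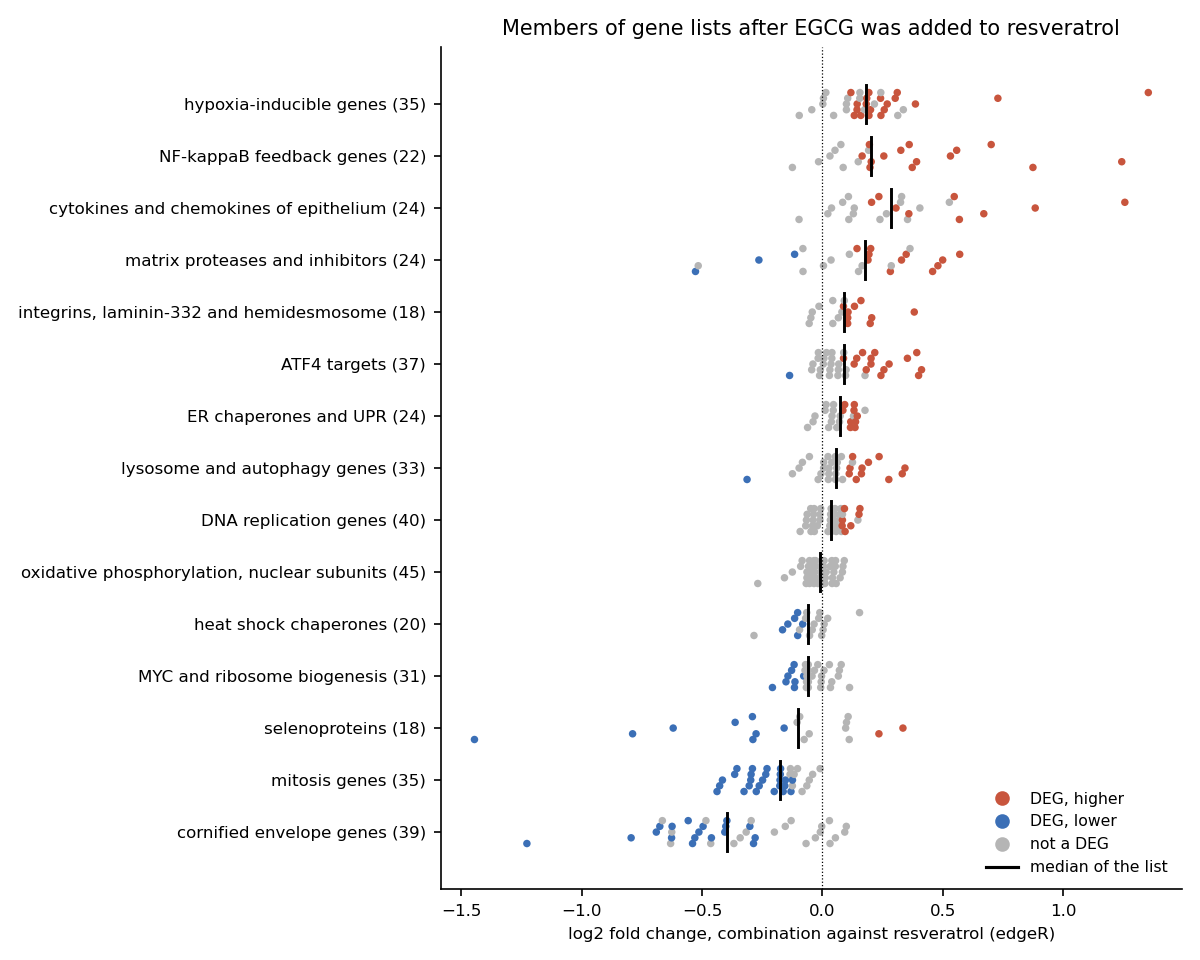
Log2 fold change of the combination against resveratrol (horizontal axis) for each tested member of 15 gene lists (rows, with the number tested), in red or blue for DEGs that were higher or lower and in gray for the rest, with a black line at the median of each list. The risen members of the upper lists and the fallen mitosis and cornified envelope genes lie on opposite sides of 0, and no gene of oxidative phosphorylation was a DEG.

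The stress-response lists held both rises and falls. ATF4 is the transcription factor of the integrated stress response, which slows translation and turns on amino acid synthesis. Of 37 tested targets 15 rose and 1 fell, the tRNA exportin XPOT (-0.14), with a median of 0.09. TRIB3, a pseudokinase induced by ATF4 and CHOP, rose from 1175 to 1299 (median 1259) to 1465 to 1684 (median 1611) (log2 fold change 0.35, standard error 0.0311, adjusted p = 5.1e-11). ATF3 had 263 to 315 (median 299) and 344 to 440.1 (median 398) normalized counts and rose by 0.41 (adjusted p = 4.0e-07), and GDF15, a stress-induced cytokine of the TGF-β family, rose by 0.39 (adjusted p = 0.00382). DDIT3, which encodes CHOP, rose by 0.26, the mTORC1 regulator SESN2 by 0.28 and the phosphatase subunit PPP1R15A by 0.22. Of 24 genes of the endoplasmic reticulum chaperone system 9 rose and none fell, among them the chaperones HSPA5 (0.14) and CALR (0.13), all by less than 0.15. In contrast, 6 of 20 cytosolic and mitochondrial heat shock genes fell and none rose, among them HSPA8 (-0.14) and HSP90AA1 (-0.08).

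Of 29 p53 targets 6 rose and 1 fell, the polo-like kinase PLK2 (-0.13). The cell cycle inhibitor CDKN1A rose from 1452 to 1564 (median 1489) to 1634 to 1915 (median 1771) (log2 fold change 0.25, adjusted p = 2.6e-07) and GADD45A by 0.21. SESN2 and GDF15 are on this list too. Of 33 lysosome and autophagy genes 11 rose and 1 fell, the transcription factor TFEB (-0.31), which turns on lysosomal genes. The autophagosome proteins MAP1LC3B and GABARAPL1 rose by 0.28 (adjusted p = 2.4e-08) and 0.19, and LAMP3, a lysosomal membrane protein, had 248 to 295 (median 259) and 309.8 to 356 (median 337) normalized counts and rose by 0.34 (adjusted p = 7.7e-05). TXNIP, an inhibitor of thioredoxin and of glucose uptake, is on none of these lists and rose from 2177 to 2331 (median 2294) to 2778 to 3033 (median 2913) (log2 fold change 0.36, standard error 0.0282, adjusted p = 2.5e-12).

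Genes of growth factor signaling and of the cell surface rose in part. Of 17 ERK feedback genes 8 rose and 1 fell, the cyclin CCND1 (-0.15), with the phosphatase DUSP5 at 0.38 (adjusted p = 3.2e-05) and the inhibitor SPRY4 at 0.29. Of 23 AP-1 and immediate early genes 7 rose, all by 0.41 or less, and none fell. Of 14 genes of the EGFR family and its ligands 6 rose and none fell, led by the ligand HBEGF, which had 291 to 347 (median 333) and 373 to 503 (median 465) normalized counts and a change of 0.46 (adjusted p = 9.9e-08), and the EGFR inhibitor LRIG1 (0.37).

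Of 24 matrix proteases and their inhibitors 11 rose and 3 fell, the 3 being the serpins SERPINB3, SERPINB7 and SERPINB5. PLAU, which encodes the urokinase that activates plasminogen, rose from 3143 to 3281 (median 3168) to 3749 to 4376 (median 3962) (log2 fold change 0.33, standard error 0.0299, adjusted p = 1.0e-10) without overlap, and its receptor PLAUR by 0.28. The tissue activator PLAT rose by 0.46 and the inhibitor SERPINB2 by 0.48. The collagenase MMP13 had 399 to 464 (median 433) and 483 to 603 (median 547) normalized counts and rose by 0.35 (adjusted p = 4.9e-06). Of 18 integrin, laminin-332 and hemidesmosome genes 9 rose and none fell. Integrin ITGA5, a fibronectin receptor subunit, changed most of these, by 0.38 (adjusted p = 6.2e-08), and the laminin-332 chains LAMA3 and LAMB3 rose by 0.09 and 0.16. CLDN1 (ENSG00000163347, chromosome 3, 190305707 to 190322446), a tight junction claudin, had the smallest adjusted p of the risen genes named here. Its normalized counts were 1928 to 2226 (median 2039.7) with resveratrol and 2588 to 3054 (median 2969) with the combination, and it rose by 0.50 (standard error 0.0348, adjusted p = 5.1e-14).

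Of the lists described here, that of mitosis genes had the largest share of falls. These genes are made in late S and G2 phase, when the repressor complexes that hold them off during G1 give way, and they drive spindle assembly and cell division. Of 35 tested genes 25 fell and none rose, with a median of -0.18, and every one of the 35 estimates was below 0. AURKA (ENSG00000087586, chromosome 20, 56369389 to 56392337), a kinase of the spindle poles, had 1360.2 to 1506 (median 1438) normalized counts with resveratrol and 1056 to 1189.5 (median 1130.1) with the combination. Its change was -0.36 (standard error 0.0316, adjusted p = 5.9e-11), with -0.36 and -0.36 in the replicate sets. KIF20A, a kinesin of cytokinesis, fell from 784 to 843 (median 798) to 546 to 663 (median 591) (log2 fold change -0.42, adjusted p = 6.9e-10), with its highest resveratrol library somewhat apart from the other 5. PLK1 changed by -0.36, the centromere histone CENPA by -0.43, topoisomerase TOP2A by -0.30, cyclin B1 (CCNB1) by -0.30 and the anaphase activator CDC20 by -0.29, each without overlap. In bulk RNA, fewer cells in mitosis and less of these mRNAs per cell cannot be told apart.

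Genes of DNA replication did not fall with those of mitosis. Of 40 tested genes 7 rose and none fell, by 0.16 or less, and the median was 0.04. They included RPA2, a subunit of the single-strand binding protein (0.16), the checkpoint adaptor CLSPN (0.15) and both subunits of ribonucleotide reductase, RRM1 (0.08) and RRM2 (0.09). Of 31 MYC and ribosome biogenesis genes 8 fell and none rose, among them the nucleolar proteins NPM1 (-0.12), NOP56 (-0.11) and LYAR (-0.21). None of 45 nuclear genes of oxidative phosphorylation was a DEG.

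Promoters of the mitosis genes were searched for TTTGAA, a form of the cell cycle genes homology region (CHR) that binds the repressor complexes named above, and for CCAAT. The first was found in 14 of the 21 fallen genes with an entry (66.7%), in 8.29% of tested genes and in 13.6% of all promoters. CCAAT was found in 19 of the 21 (90.5%), in 35.3% of tested genes and in 33% of all promoters. Of the 29 tested mitosis genes with an entry, fallen or not, 15 held TTTGAA (51.7%) and 22 held CCAAT (75.9%). The list was chosen as one of mitosis genes, so its shares above those of all tested genes say nothing about the fall. PLK1 is shown because its single match lies near the start, with TTTGAA in capitals 29 bases ahead of it (chr16:23678639-23678888, plus strand).
PLK1: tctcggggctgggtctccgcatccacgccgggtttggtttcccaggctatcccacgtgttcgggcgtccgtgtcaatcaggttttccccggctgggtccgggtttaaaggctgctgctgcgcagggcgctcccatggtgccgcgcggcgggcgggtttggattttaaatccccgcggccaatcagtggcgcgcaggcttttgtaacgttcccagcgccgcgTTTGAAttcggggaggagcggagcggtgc

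Falls were also found among genes of terminal differentiation of squamous epithelium. These genes build the cornified envelope, the cross-linked shell that replaces the membrane of dying keratinocytes, and the desmosomes and keratins of the upper layers. Of 39 tested genes 18 fell and none rose, with a median of -0.40, the lowest median of the lists described here apart from that of the chorionic gonadotropin genes. SBSN (suprabasin) had 89.5 to 130.0 (median 106) normalized counts with resveratrol and 61.7 to 73.8 (median 64.9) with the combination, without overlap, and a change of -0.69 (standard error 0.102, adjusted p = 7.7e-06). The desmosomal cadherins DSC1 and DSG1 changed by -0.68 (55.3 to 77.7 (median 63.9) and 27.1 to 52.0 (median 40.1)) and -0.53 (66.9 to 92.6 (median 82.3) and 49.9 to 64.2 (median 57.6)), also without overlap. The suprabasal keratins KRT1 and KRT10 changed by -0.54 and -0.29 (adjusted p = 5.0e-04 and 3.6e-07), and IVL (involucrin) by -0.40. SPRR1B, the most abundant of the fallen small proline-rich genes, went from 1197 to 1409.9 (median 1284) to 888 to 1069 (median 977) (log2 fold change -0.41, adjusted p = 5.8e-06). SPRR4 changed by -0.80 (adjusted p = 0.0229) at 20.1 to 28.3 (median 24.1) and 9.06 to 25.4 (median 11.2) normalized counts, where combination replicate 3 was the highest combination library, and by -1.15 without it. Members of the late cornified envelope and small proline-rich families are close in sequence, so reads may have been divided between them.

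Among 17 basal and stress keratins 7 fell and 3 rose. The stress keratins KRT16 (-0.21), KRT6B (-0.28) and KRT6C (-0.13) fell, while the simple-epithelium pair KRT8 and KRT18 rose by 0.11 and 0.16. The basal keratin KRT5, at 35196 to 39056 (median 37483) and 34339 to 36973 (median 35014) normalized counts, changed by -0.08 (adjusted p = 0.0888), and TP63, the basal cell transcription factor, rose by 0.13.

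Without combination replicate 3 the list counts were 22 risen hypoxia-inducible genes, 13 NF-kappaB genes and 10 cytokines, and 27 fallen mitosis genes, 20 cornified envelope genes and 8 selenoproteins. The medians that moved most were those of the cornified envelope genes, at -0.46, and of the selenoproteins, at -0.16.

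Several of the largest changes belonged to none of these groups. KANK4, an actin-regulating scaffold gene, had 66.7 to 77.6 (median 71.4) normalized counts with resveratrol and 23.2 to 56.3 (median 31.8) with the combination, a change of -1.05 (standard error 0.139, adjusted p = 8.6e-07). The urothelial tetraspanin UPK1B changed by -0.91, the BMP pathway inhibitor SMAD6 by -0.83, the helicase PIF1 by -0.80 and SERPINB11 by -0.82, all at under 100 normalized counts in every one of the 12 libraries. The near-identical pair SYT15 and SYT15B changed by -0.77 and -0.75, and their summed count had a log2 ratio of -0.75. Among the rises, TCAF2 changed by 0.77, C1QL4 by 0.57, LNX1 by 0.55 and the sodium channel gene SCN9A by 0.54. Some falls of 1.5-fold or more were of noncoding RNA rather than mRNA. The ribosomal RNA gene RNA5-8SN3 had 301 and 794 normalized counts in resveratrol replicates 2 and 3 and 91.7 to 152 in the other 10 libraries, so its fall rests on those libraries. The noncoding RN7SL1, RN7SL3, RN7SL4P and RN7SL5P changed by -1.41 to -1.15 in replicates 1 to 3 and by -0.34 to -0.13 in replicates 4 to 6.

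Of the 12 genes taken from the study for their part in its stress and xenobiotic responses or differentiation, ATF3, GDF15, LAMP3 and SPRR4 are described above and the other 8 did not pass the test between these groups. AKR1C1, AKR1C2 and AKR1C3, aldo-keto reductases of steroid and xenobiotic metabolism, differed by -0.05 (standard error 0.0623), -0.04 (0.0536) and 0.03 (0.0796). The cystine transporter SLC7A11 differed by -0.01 (standard error 0.0479), with -0.15 in replicates 1 to 3 and 0.12 in replicates 4 to 6. HMOX1 differed by 0.09 (0.132), NQO1 by -0.01 (0.0273), CYP1B1 by -0.11 (0.0833) and ALDH1A3 by 0.00 (0.0660). Over 31 targets of NRF2, the factor of the electrophile response, 1 rose (GCLC, 0.12) and 2 fell (TXNRD1 and SRXN1), with a median of 0.00. Without combination replicate 3 these counts were 2 and 1.

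The same dose of EGCG was also given without resveratrol, so its change could be set beside the change in resveratrol-treated cells. These comparisons share no library. EGCG against control gave 342 DEGs (2.21%), 172 higher (1.11%) and 170 lower (1.10%). Of these, 196 were DEGs beside resveratrol too, which is 57.3% of the 342 and 13.9% of the 1408, and 190 of the 196 changed in the same direction in both. Over the 1408 genes, the median absolute change with EGCG alone was 0.07, against 0.19 beside resveratrol. The 1408 were chosen by their change beside resveratrol, which favors the larger value there. The direction was the same for 1143 of them.

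Members of the selenoprotein and hypoxia-inducible lists were DEGs in both settings. SELENOW changed by -1.60 with EGCG alone and by -1.45 beside resveratrol, SELENOH by -0.66 and -0.79, GPX1 by -0.59 and -0.62, and BNIP3 by 0.83 and 0.73. The medians of the lists with EGCG alone were 0.16 for hypoxia-inducible genes (15 risen, 1 fallen) and -0.05 for selenoproteins (7 fallen, 2 risen). The mitosis genes had a median of -0.09 with EGCG alone, with 10 fallen. The NF-kappaB genes had 5 rises, 1 fall and a median of 0.09 with EGCG alone. The cornified envelope genes had no DEG with EGCG alone and a median of -0.05, and the cytokines had 1 rise, 1 fall and a median of 0.04. Whether a gene differed between the settings was tested by the interaction.

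The interaction compares the change with EGCG beside resveratrol with the change with EGCG alone. It gave 79 DEGs (0.510%), 57 above the sum of the single agents (0.368%) and 22 below it (0.142%). Of the 79, 72 were also DEGs beside resveratrol. The sum is one of log2 changes, and a gene above it need not have risen. KRT81, for example, lay above it with a change of -0.65 with EGCG alone and -0.30 beside resveratrol. For 53 of the 79 the estimates in the 2 settings had opposite signs. Among them the change with EGCG alone was close to 0 for some, such as TNC (-0.003) and HAS3 (-0.04). For others it was not, such as CYP24A1 (-0.36). Near 0 the sign is uncertain, and choosing genes by a large difference favors opposite signs. The interaction DEGs numbered 41 without the set term, and 108 without combination replicate 3, an alternative added after seeing the data.

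For COL1A1, CYP24A1 and IER3 the change with EGCG had opposite signs in the 2 settings. COL1A1, a collagen I chain, had mean normalized counts (± SD, n = 6) of 1182 ± 92.5 in untreated cells and 981 ± 85.9 after EGCG, against 1445 ± 90.8 after resveratrol and 1649.6 ± 88.3 after the combination. It changed by -0.27 with EGCG alone and by 0.19 beside resveratrol (difference 0.46, adjusted p = 1.7e-04). CYP24A1, which breaks down vitamin D, and IER3, an immediate early gene of stress, changed by -0.36 and -0.16 with EGCG alone and by 0.22 and 0.19 beside resveratrol, with differences of 0.58 and 0.35 (adjusted p = 1.0e-04 and 2.0e-04).

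For MMP13, PLAU, IL1A and HAS3, a hyaluronan synthase, the change with EGCG alone was small and did not pass the test (-0.15, 0.08, -0.07 and -0.04). Their differences between the settings were 0.50, 0.25, 0.31 and 0.27 (adjusted p = 2.2e-04, 9.4e-04, 9.4e-04 and 6.1e-04). In the matrix protease list 5 of 24 genes lay above the sum and 1 below, and in the ERK feedback list 4 of 17 lay above.

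Below the sum lay 5 of 35 mitosis genes and 4 of 39 cornified envelope genes. AURKA had mean normalized counts (± SD, n = 6) of 2298 ± 41.6 in untreated cells and 2136 ± 40.1 after EGCG, against 1442 ± 55.1 after resveratrol and 1129 ± 51.5 after the combination. It changed by -0.10 with EGCG alone and by -0.36 beside resveratrol, a difference of -0.25 (adjusted p = 9.4e-04). KIF20A and TOP2A differed by -0.28 and -0.24 (adjusted p = 0.00408 and 0.00247). SPRR1B changed by 0.06 with EGCG alone and by -0.41 beside resveratrol (difference -0.47, adjusted p = 9.9e-04), and SBSN by -0.08 and -0.69 (difference -0.61, adjusted p = 0.0147). No member of the selenoprotein list was an interaction DEG.

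**Figure D4:**
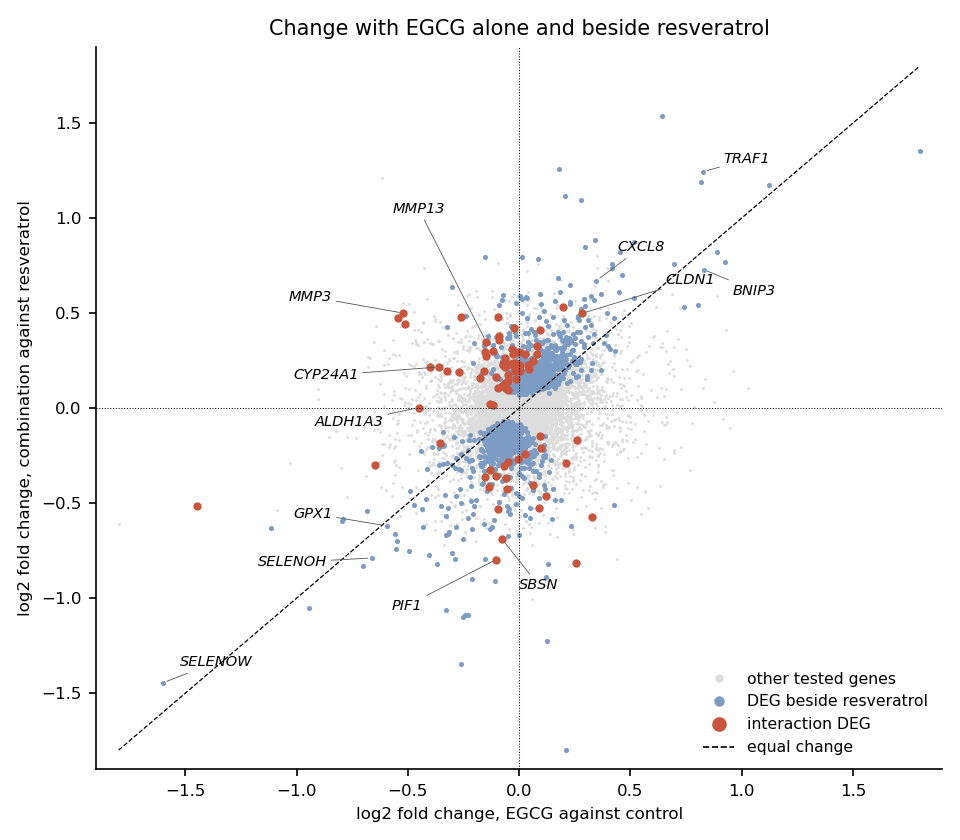
Log2 fold change of EGCG against control (horizontal axis) and of the combination against resveratrol (vertical axis) for the 15476 tested genes, with DEGs beside resveratrol in blue, interaction DEGs in red, a dashed line of equal change, and 3 genes beyond 1.8 drawn at the edge. SELENOW, GPX1 and BNIP3 lie near the dashed line, and CYP24A1 and MMP13 lie left of 0 on the horizontal axis and above 0 on the vertical one.

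**Figure D5:**
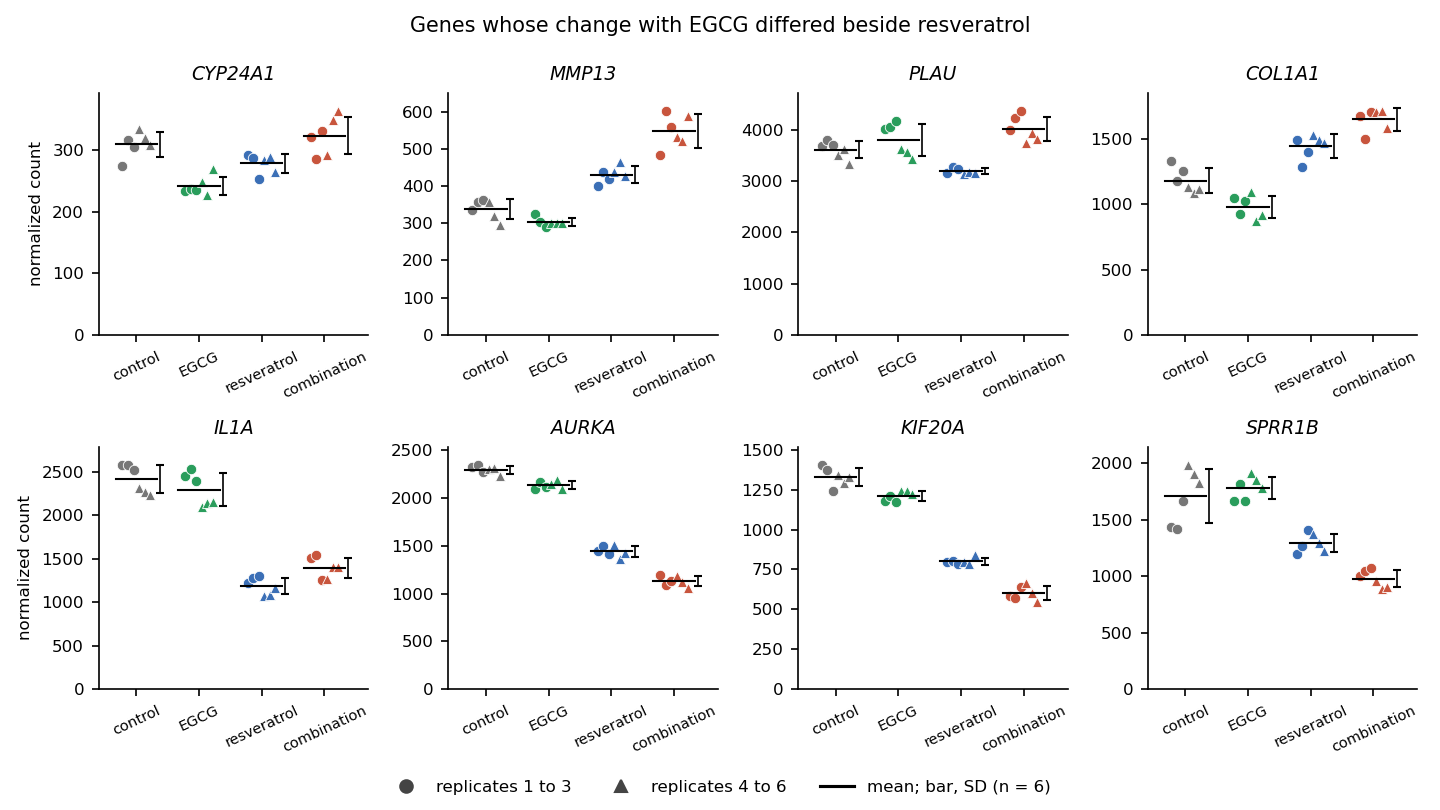
Normalized counts (vertical axes, from 0) of 8 interaction DEGs in the 6 libraries of each of the 4 groups, with circles for replicates 1 to 3, triangles for replicates 4 to 6, a line at the mean and a bar for the SD. CYP24A1, MMP13, PLAU, COL1A1 and IL1A have higher means with the combination than with resveratrol, and AURKA, KIF20A and SPRR1B have lower ones.

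The change with EGCG beside resveratrol was also compared between replicates 1 to 3 and 4 to 6. No gene was a DEG for this difference in edgeR (smallest adjusted p = 0.469), and 1335 genes (8.63%) had an unadjusted p under 0.05, a number that was 743 (4.78%) without combination replicate 3. The smallest p belonged to the pseudogene SEC22B2P (-0.55 and 0.96), the noncoding LINC00674 (-1.07 and 1.01), the keratin pseudogene KRT17P1 (0.24 and -0.38), the ubiquitin ligase MIB1 (-0.24 and 0.20) and SCRN3 (-0.29 and 0.26). None of these 5 was a DEG over all libraries.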

How the data were processed

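Total RNA of 686Tu cells was sequenced by the authors as stranded mRNA libraries of paired reads, trimmed with Trimmomatic and aligned to GRCh38 with HISAT2. The counting program, annotation release and strand setting are not given in the sources used here. The authors deposited raw counts per gene, whole numbers without normalization. The authors' normalized counts, a signal used here for levels, equal raw counts over a single size factor for each library, and the deposited FPKM values, not used for tests, are these divided by gene length.

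The quasi-likelihood test of edgeR 4.0.16 (R 4.3.3, TMM, filterByExpr) was run on the raw counts of 24 libraries, with group and replicate set as terms, leaving 15476 of 60617 genes. At 7034872 to 11735574 counts per library, counting error is small except for genes with few counts. The standard error is the log2 fold change divided by the square root of F. The alternatives included DESeq2 1.42.0, other scalings and filters, fewer libraries and each library left out. The fits were tested on simulated data.

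The comparison, the 42 gene lists and the alternatives were chosen with earlier results of these data known. Named genes are DEGs with a mean normalized count of at least 20, no overlap and the same sign in both sets (the 12 largest rises and falls and the 6 smallest p each way), the 12 genes the study names, the 8 interaction DEGs and 5 set differences with the smallest p, which are 57 genes in all, and beside them list members. LOXL2, TXNIP and CLDN1 came from these rules. Results of 2 genes are not reported here. The noncoding RNA5-8SN3 and RN7SL entries, and TCAF2C, were named after their values were seen. Where nothing says that replicates were separate cultures, p-values measure the spread between these samples, which may be technical. Gene symbols matched 60261 of 60617 identifiers in GENCODE.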

Additional observations from a re-analysis of the deposited data

Results flagged for a closer look

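Combination replicate 3 had the lowest score on the first principal component, -24.7, and lay farther from the other 5 combination libraries than Dixon's limit for 6 samples allows. Among 114 groups of 6 values of the genes named by rank or from the study, 5 held a library beyond that limit, where chance flags about 1 in 20 groups. They were resveratrol replicate 1 for SCN9A (24.8 normalized counts, the lowest), resveratrol replicate 6 for KIF20A (842.6, the highest), combination replicate 3 for SPRR4 (25.4, the highest), combination replicate 2 for HAS3 (1828, the lowest) and resveratrol replicate 4 for KRT17P1 (682.5, the highest).

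The change with EGCG differed between cells with and without resveratrol, by the interaction in edgeR, for 15 of the 57 genes named by rank or from the study. It was higher beside resveratrol by 0.58 for CYP24A1, 0.50 for MMP13, 0.46 for COL1A1, 0.45 for ALDH1A3, 0.35 for IER3, 0.34 for TNFAIP3, 0.31 for IL1A, 0.27 for HAS3, 0.25 for PLAU and 0.22 for CLDN1. For SERPINB11 the difference was -1.07, for PIF1 -0.69, for SBSN -0.61, for KIF20A -0.28 and for AURKA -0.25. Other list members named in the text were also interaction DEGs, higher beside resveratrol for SERPINB2 (0.58), DUSP5 (0.47), IL1B (0.45), PPP1R15A (0.24) and CDKN1A (0.19) and lower for SERPINB3 (-0.62), SPRR1B (-0.47), CENPA (-0.37), TOP2A (-0.24), KRT10 (-0.24) and PLK1 (-0.21). ALDH1A3 changed by -0.45 with EGCG alone and by 0.00 beside resveratrol, at mean normalized counts of 780.1 ± 34.4 in the control and 158 ± 13.3 with resveratrol (SD, n = 6).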

How the results depend on the processing

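With 6 libraries alone, replicates 1 to 3 gave 197 DEGs (114 higher, 83 lower, 40 of 1.5-fold or more) and replicates 4 to 6 gave 776 (432 higher, 344 lower), fits with fewer samples. Within the full fit, the set of replicates 1 to 3 gave 1302 DEGs, and 378 without combination replicate 3, and that of replicates 4 to 6 gave 295. The causes were not tested. The number of 1.5-fold DEGs was 31 with the DESeq2 Wald test, 39 with at least 10 counts required in every library and 122 with every gene of at least 1 count. The interaction gave 41 DEGs without the set term. Without combination replicate 3, sterol genes gave 3 rises and interferon-induced genes 4. Leaving out 1 library at a time gave 1035 to 1454 DEGs (528 to 743 higher, 507 to 757 lower, 69 to 91 of 1.5-fold or more), the lowest without resveratrol replicate 2. In replicates 4 to 6 alone SLC7A11 and MIB1, not DEGs in the full fit, turned from below 0 to 0.13 and 0.20. Over 1242 values of the genes named by rank or from the study under these alternatives, 1220 kept their direction and their side of the limits, 18 no longer passed, 2 newly passed (SEC22B2P and KRT17P1) and 2 reversed. Most of these genes were chosen by their values in these libraries, and most alternatives reuse nearly all of them, so such agreement was favored in advance.

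Same-numbered libraries of the 2 groups had correlations of -0.003 to 0.101 of their deviations from the group means. These values are taken over all tested genes at once, so they cannot decide whether the replicate numbers pair the libraries. With the replicate number as a block in place of the sets there were 1520 DEGs (760 higher, 760 lower, 80 of 1.5-fold or more), 370 with EGCG alone and 85 for the interaction. Low counts limit the precision for genes under about 20 normalized counts, such as CA9 and CSF2.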

Other observations

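The remaining lists held fewer changes beside resveratrol. Of 26 genes of sterol synthesis and uptake 5 rose, led by HMGCS1 (0.18), and 3 without combination replicate 3. Of 35 interferon-induced genes 7 rose and 2 fell (DDX60, -0.30, and SAMD9, -0.22), and 4 rose without that library. Metallothioneins and the zinc exporter gave 3 falls among 7 tested genes (MT1F, -0.53, SLC30A1, -0.32, and MT1E, -0.13), and with EGCG alone their median was -0.36. Of 5 tested chorionic gonadotropin beta genes, whose reads cannot be told apart with certainty, 3 fell, and the summed count of the family went from 156 ± 19.9 to 105 ± 5.17 (SD, n = 6).

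YAP-TEAD targets gave 3 rises and 1 fall among 20 genes, glutathione genes 3 rises among 21, the BCL2 family 2 rises among 18 (BNIP3 and BCL2L2, 0.12) and fatty acid synthesis 1 rise among 17 (ACSS2, 0.28). Without combination replicate 3 the BCL2 family gave 5 rises, and fatty acid synthesis gave 1 rise and 3 falls. Targets of the aryl hydrocarbon receptor gave 1 rise among 10, the Notch pathway 1 fall among 17, S100 proteins 1 fall among 13 (S100A9, -0.27) and mitochondrially encoded transcripts 1 rise among 15. Over all tested genes 4.59% were higher and 4.50% lower, so 1 DEG in a list this short is no result about the list. Cholesterol efflux (9 tested) and polyphenol conjugation and efflux (12 tested) held no DEG in edgeR. Without that library the Notch pathway gave 3 falls, cholesterol efflux 1 fall and polyphenol conjugation and efflux 1 rise. Of the 18 squamous markers 5 rose and 3 fell, with a median of 0.00. Of the 2 tested fibroblast markers COL1A1 rose, and the 1 tested endothelial marker was not a DEG.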
